A study of Rattus norvegicus with 24 samples.

Results

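The genes described here are 10 endothelial genes, the receptors for vascular endothelial growth factor (VEGF) among them. They were chosen by name: Pecam1 (rat Entrez identifier 29583), Cdh5 (307618), Kdr (25589), Flt1 (54251), Tek (89804), Emcn (295490), Ehd3 (192249), Plvap (56765), Eng (497010) and Nos3 (24600). All 10 were found by these identifiers among the 17334 genes of the deposited tables, and all 10 passed the low-count filter that left 12778 genes for testing. RNA of the whole left kidney was sequenced in 4 groups of 6 male rats of the line PKD/Mhm (Cy/+), 24 in all. By their labels all groups carry 1 copy of the Cy allele, a missense change in Anks6 that gives cystic kidneys. No rats labelled as without Cy were analysed here. The study used palpation of the abdomen to tell Cy/+ rats from those without cysts. Ctrl rats were untreated. CoCM rats received the supernatant of human skin-derived ABCB5+ cells that had been co-cultured with macrophages made from the human line THP-1 and stimulated with IFN-γ and LPS. The descriptions of the study differ on whether this medium was given intravenously or intraperitoneally. ipABCB5 and ivABCB5 rats received the human ABCB5+ cells themselves by intraperitoneal or intravenous injection. Treatment was monthly over 6 months, and the rats were 8 months old when the kidney was taken. Ctrl rats bear the numbers 1 to 24 and treated rats 26 to 43, so that the order of the animals and treatment cannot be told apart in any comparison with Ctrl.

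Endothelial cells line every vessel of the kidney, from arteries to the peritubular capillaries around the tubules and the fenestrated capillaries of the glomerulus. In the kidney VEGF-A is made mainly by podocytes and tubule cells and acts on VEGF receptor 2 on the neighbouring capillaries, which depend on it for their survival and their fenestrae. VEGF receptor 1 binds the same ligand with high affinity but signals weakly, and Tie2 answers to the angiopoietins, which keep vessels quiescent or loosen them.

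Libraries held 9304601 to 14125442 estimated counts. No member was thinly counted: the lowest value of any member in any library was 135 counts, of Cdh5. Levels in single rats are given below as CPM, counts brought to the same library size with factors from the trimmed mean of M-values, and levels compared between genes as TPM, transcript abundances that allow for transcript length. The kidney was identified by its nephron genes, and the summed CPM of 7 proximal tubule genes ran from 2989.7 to 19349 over the 24 rats. In bulk tissue, fewer endothelial cells and less RNA per endothelial cell cannot be told apart. In earlier work on these data 4 rats stood apart from the other 20, namely CoCM 39, ipABCB5 38, ivABCB5 36 and ivABCB5 37, and none was a Ctrl rat. They were taken over from that work, and the measure that set them apart was not recomputed here. Their values of Spp1, which encodes osteopontin, were the 4 lowest, at 370 to 669 CPM against 6594 to 13000 in the others. These 4 had the 4 lowest summed CPM of 24 for 7 fibroblast genes, 134 to 529 against 728 to 3426 in the other 20, and for 9 macrophage genes, 69.6 to 170 against 305 to 849. Results are given with and without them where the value turns on them.

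Promoters of 7 of the 10 members were in the RefSeq table used (GRCr8, 250 bases before to 50 after the start). Several pairs of these genes varied together between rats, Plvap and Eng more closely than Emcn and Ehd3 (Pearson r 0.85 and 0.78, 24 rats). As examples, the promoters of the 2 VEGF receptor genes, Kdr and Flt1, and of Emcn and Ehd3 are printed. Each is written 5′ to 3′ along the gene, with GGAA or its reverse complement TTCC, the core recognised by ETS transcription factors, in capitals. The reads were quantified by the authors on another build, so that these positions hold for GRCr8 only.
Kdr promoter, chr14:32571813-32572112, + strand: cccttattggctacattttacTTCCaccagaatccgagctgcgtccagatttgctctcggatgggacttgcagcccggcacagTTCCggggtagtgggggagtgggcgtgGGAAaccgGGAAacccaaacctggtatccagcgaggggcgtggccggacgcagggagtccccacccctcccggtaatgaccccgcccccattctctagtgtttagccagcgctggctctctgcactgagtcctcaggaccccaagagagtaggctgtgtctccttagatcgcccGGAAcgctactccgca
Flt1 promoter, chr12:12333180-12333479, + strand: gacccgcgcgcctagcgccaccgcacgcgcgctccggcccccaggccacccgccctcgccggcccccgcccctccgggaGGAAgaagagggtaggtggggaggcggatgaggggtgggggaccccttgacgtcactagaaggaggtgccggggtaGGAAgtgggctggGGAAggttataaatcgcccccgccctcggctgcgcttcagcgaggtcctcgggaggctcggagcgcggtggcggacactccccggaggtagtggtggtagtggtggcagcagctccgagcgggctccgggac
Emcn promoter, chr2:228564289-228564588, + strand: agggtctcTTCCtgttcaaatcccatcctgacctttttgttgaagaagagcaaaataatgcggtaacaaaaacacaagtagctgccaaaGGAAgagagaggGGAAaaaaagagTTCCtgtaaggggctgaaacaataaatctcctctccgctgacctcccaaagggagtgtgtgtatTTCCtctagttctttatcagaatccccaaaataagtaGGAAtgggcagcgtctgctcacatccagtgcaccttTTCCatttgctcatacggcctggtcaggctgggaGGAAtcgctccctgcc
Ehd3 promoter, chr6:27417396-27417695, - strand: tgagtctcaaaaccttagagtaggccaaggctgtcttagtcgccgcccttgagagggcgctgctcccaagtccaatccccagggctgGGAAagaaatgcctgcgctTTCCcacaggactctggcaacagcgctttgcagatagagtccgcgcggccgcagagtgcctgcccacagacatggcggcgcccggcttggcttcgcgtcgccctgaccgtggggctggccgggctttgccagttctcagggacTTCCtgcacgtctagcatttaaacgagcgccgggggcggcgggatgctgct
On both strands together the core occurred 5 times in the Kdr window, 3 times in that of Flt1, 8 times in that of Emcn and 3 times in that of Ehd3. All 7 member promoters held it, but so did 95.8% of 33469 rat promoters of the same length, of which the median held 3. The longer form CCGGAA, which contains the core, was in 1 of the 7 (Kdr) and in 15.0% of all. The GC box GGGCGG was in 5 of 7 and in 33.1% of all. TATAAA was in 2 of 7, Flt1 and Plvap, and in 14.2% of all. These are matches of letters and not sites of binding.

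By TPM the members spanned a wide range of levels. Eng, the transforming growth factor β co-receptor endoglin, was the most abundant at 146 ± 36.3 TPM (mean ± SD, n = 24 rats). It was followed by Plvap, which forms the diaphragms of fenestrae and caveolae, at 125 ± 33.5, and by Emcn, the sialomucin endomucin of capillaries and veins, at 111 ± 22.4. Pecam1, the junctional adhesion molecule CD31, stood at 78.4 ± 18.8 TPM. Ehd3, an endocytic protein known in the kidney from glomerular endothelium, stood at 33.3 ± 10.5. The receptors Tek (Tie2), Kdr (VEGF receptor 2) and Flt1 (VEGF receptor 1) lay close together at 23.1 ± 5.66, 22.5 ± 5.68 and 19.6 ± 4.89 TPM. Cdh5, the adherens junction protein VE-cadherin, stood at 17.4 ± 6.64 and Nos3, the endothelial nitric oxide synthase, at 9.46 ± 1.79 TPM. Within libraries most of this order held. Emcn exceeded Pecam1 in 24 of 24 rats, Pecam1 exceeded Ehd3 in 23, and Cdh5 exceeded Nos3 in 22. Neighbours that changed places often were Tek and Kdr, with Tek higher in 16 of 24, and Flt1 and Cdh5, with Flt1 higher in 17.

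The first comparison asks whether the conditioned medium changed these genes. Most members were lower in CoCM than in Ctrl, but none passed the test corrected over all genes. With edgeR's quasi-likelihood test and Benjamini-Hochberg adjustment 0 of 10 members had an adjusted p under 0.05, against 1 of 12778 genes (0.00783%), and the smallest adjusted p of a member was 0.301 (Tek). DESeq2 and limma voom with sample weights also gave 0 of 10, with smallest adjusted p of 0.142 and 0.0587, both for Tek. At an unadjusted p under 0.05, 4 of 10 were called, Cdh5, Kdr, Flt1 and Tek, all of them lower, against 11.9% of all genes in either direction and 5.96% in the lower direction. The log2 fold change was below 0 for 9 of 10 members and for 48.6% of all genes, and its median was -0.34 over the members and 0.01 over all genes. No member had groups that did not overlap, as 0.524% of all genes did in the lower direction.

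**Figure D1:**
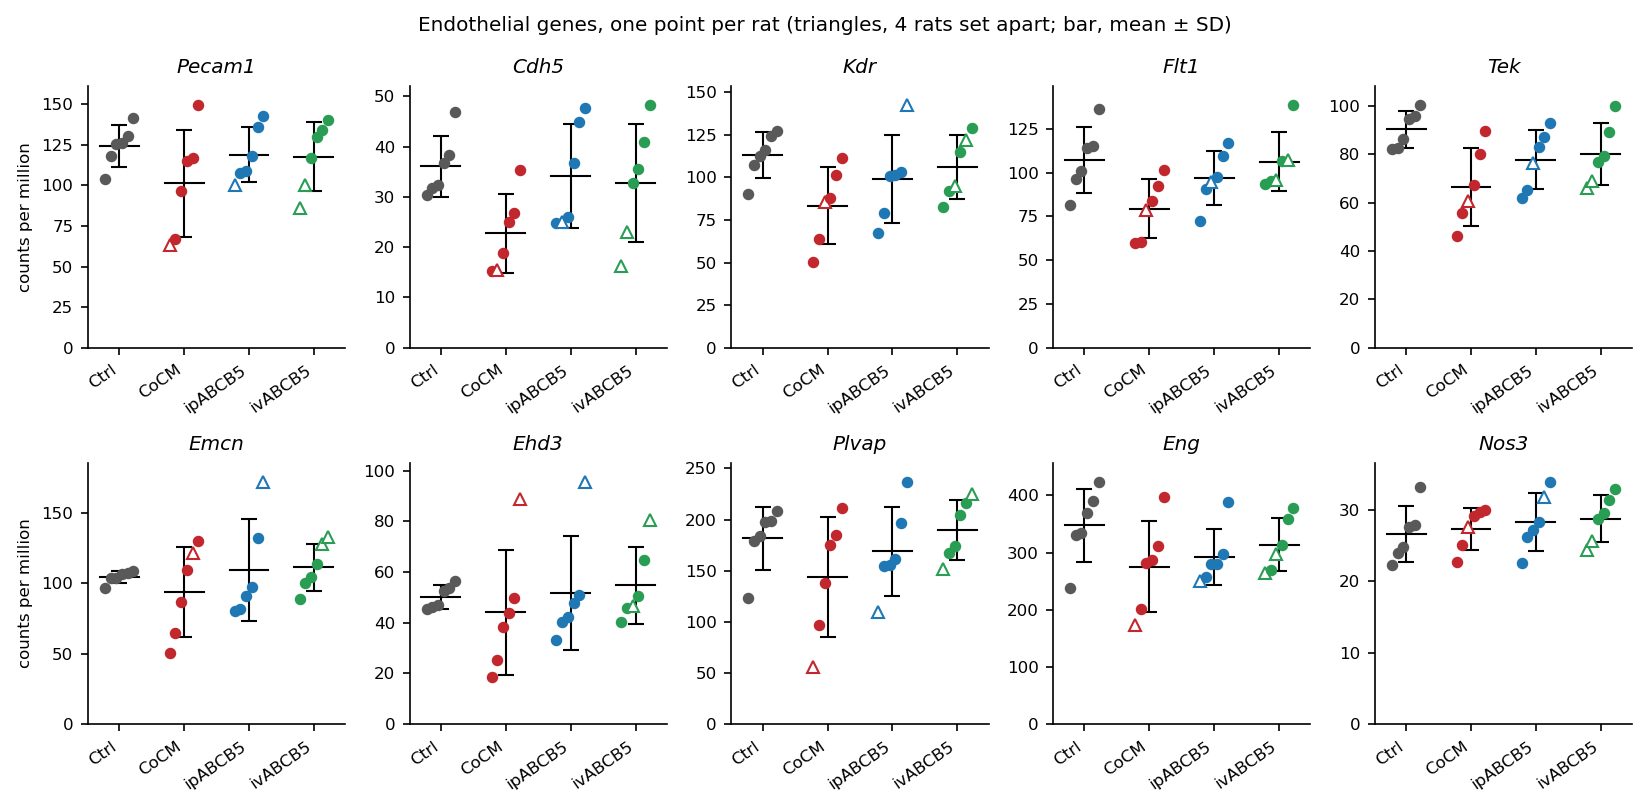
Level of each of the 10 genes in CPM (vertical axis, from 0) in the 4 groups of 6 rats. Each point is a rat, open triangles are CoCM 39, ipABCB5 38, ivABCB5 36 and ivABCB5 37, and the bar is the mean ± SD. For Cdh5, 5 of 6 CoCM rats lie below the lowest Ctrl rat, while for Nos3 none does.

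The VEGF receptors were among the lower genes. Kdr lay at 90.0 to 127 CPM in Ctrl (median 114) and at 50.4 to 111 in CoCM (median 86.8). All 6 CoCM rats were below the Ctrl mean and 4 were below the lowest Ctrl rat. The fold change was 0.738 (log2 -0.44 ± 0.18 SE, 95% interval -0.81 to -0.07, unadjusted p = 0.022, adjusted p = 0.376). Flt1 lay at 81.3 to 136 CPM in Ctrl (median 108) and at 59.7 to 102 in CoCM (median 81.1), again with all 6 CoCM rats below the Ctrl mean and 3 below the lowest Ctrl rat. Its fold change was 0.74 (log2 -0.43 ± 0.15, interval -0.73 to -0.13, unadjusted p = 0.00677, adjusted p = 0.319). Both groups of rats overlapped for both receptors. Kdr and Flt1 have the longest transcripts of the 10, with effective lengths 2.97 and 3.33 times the median gene (Tek 2.28, Nos3 1.96), and the slope of log2 CPM, as a deviation from the mean of all libraries, on log2 transcript length was below 0 in all 6 CoCM libraries (-0.101 to -0.0221) against -0.0582 to 0.106 in Ctrl. With this length trend taken out of each library, an alternative chosen after the data were seen, Kdr moved to -0.30 (unadjusted p = 0.0965) and Flt1 to -0.27 (unadjusted p = 0.051).

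Tek, which encodes the angiopoietin receptor Tie2, had the smallest p of the members. It lay at 82.1 to 100.2 CPM in Ctrl (median 90.4) and at 46.0 to 89.7 in CoCM (median 63.8). Of the CoCM rats, 5 of 6 were below the lowest Ctrl rat and the sixth, CoCM 40, lay just under the Ctrl mean. The fold change was 0.736 (log2 -0.44 ± 0.14, interval -0.73 to -0.15, unadjusted p = 0.00423). Without the length trend it was -0.34 (unadjusted p = 0.0177).

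Of the junction genes, Cdh5 had the largest difference of the 10. It lay at 30.3 to 46.9 CPM in Ctrl (median 34.6) and at 15.2 to 35.4 in CoCM (median 22), with 5 of 6 CoCM rats under the lowest Ctrl rat. The fold change was 0.633 (log2 -0.66 ± 0.25, interval -1.17 to -0.15, unadjusted p = 0.0137, adjusted p = 0.353). Pecam1 lay at 104 to 142 CPM in Ctrl (median 126) and over a wider range of 63.4 to 149 in CoCM (median 106). CoCM thus held both the lowest and the highest Pecam1 rat of all 24, CoCM 39 and CoCM 40. The log2 fold change was -0.29 ± 0.17 (interval -0.64 to 0.06, unadjusted p = 0.0951), and -0.19 without the 4 rats that stood apart, -0.45 without CoCM 40 and -0.46 on the TPM scales.

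The capillary genes spread widely in CoCM. Emcn varied little in Ctrl, from 96.8 to 108 CPM (median 105), but from 50.2 to 130 in CoCM (median 98.0), where 3 of 6 rats lay below and 3 above all Ctrl rats. The log2 fold change was -0.16 ± 0.20 (interval -0.58 to 0.26, unadjusted p = 0.444). It was -0.25 without the 4 rats that stood apart (unadjusted p = 0.206), -0.33 with sample weights, -0.34 on the TPM scales, and from -0.30 without CoCM 27 to -0.04 without CoCM 34. Ehd3 lay at 45.5 to 56.5 CPM in Ctrl (median 49.7) and at 18.6 to 88.6 in CoCM (median 41). Here 4 CoCM rats lay below every Ctrl rat and CoCM 39 lay above all of them. The log2 fold change was -0.19 ± 0.29 (interval -0.78 to 0.40, unadjusted p = 0.513), and without the 4 rats that stood apart it was -0.51 (unadjusted p = 0.0186). It was -0.55 with sample weights, and -0.05 without CoCM 34 and -0.07 without CoCM 26. Plvap lay at 123 to 208 CPM in Ctrl (median 191) and at 56.2 to 211 in CoCM (median 157), with a log2 fold change of -0.34 ± 0.23 (interval -0.82 to 0.14, unadjusted p = 0.16) that moved to -0.18 without the same 4 rats and to -0.55 on the TPM scales.

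Eng and Nos3 complete the list. Eng lay at 238 to 424 CPM in Ctrl (median 352) and at 174 to 398 in CoCM (median 285), with 5 of 6 CoCM rats below the Ctrl mean (log2 -0.33 ± 0.17, interval -0.69 to 0.02, unadjusted p = 0.0609). Nos3 was the only member not below 0, at 22.3 to 33.2 CPM in Ctrl (median 26.2) and 22.7 to 29.9 in CoCM (median 28.4). Its log2 fold change was 0.04 ± 0.11 (interval -0.19 to 0.27, unadjusted p = 0.731) on CPM and turned to -0.06 on the log2(TPM + 1) scale. On that scale the median of all genes itself moved by -0.10 in CoCM against Ctrl, and by -0.11 on log2(TPM + 0.1), which is why rats are compared by CPM.

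For Cdh5, Kdr, Flt1 and Tek all 6 CoCM rats lay below the Ctrl mean, but the lower levels were more marked in some CoCM rats than in others. CoCM 34 was among the lowest 6 of all 24 rats for 10 of 10 members, CoCM 26 for 8 and CoCM 39 for 7. CoCM 35 was among them for 3 members, and CoCM 27 and CoCM 40 for none. Of the rats given cells, ipABCB5 31 was among them for 6 members, and ipABCB5 32 and ivABCB5 36 for 5 each. Summed over the 10 members, the CPM was 646 to 1285 in CoCM (median 906) against 973 to 1297 in Ctrl (median 1229), 919.5 to 1260.5 in ipABCB5 (median 1069.6) and 1059 to 1339 in ivABCB5 (median 1102). The SD of log2 CPM within CoCM exceeded that within Ctrl for 9 of 10 members, all but Nos3, and was widest for Ehd3 (0.78 against 0.13) and Plvap (0.72 against 0.28). No test was made of these spreads. Fibroblast genes also had a lower median sum in CoCM (summed CPM 134 to 2616, median 1122, against 838 to 3426, median 1903, in Ctrl), with 7 of 7 below 0 and 0 past an unadjusted p of 0.05. The same held for macrophage genes (69.6 to 783, median 391, against 339 to 849, median 600.2), with 8 of 9 below 0 and 0 past that p. Both lists were also below 0 against Ctrl in the cell groups, where 0 of 10 members had an unadjusted p under 0.05. The fibroblast genes were lower in value for 7 of 7 in ipABCB5 (median log2 -0.49) and in ivABCB5 (-0.65), and the macrophage genes for 9 of 9 in both (-0.49 and -0.53), beside member medians of -0.09 and -0.05. Whether these shifts have a part in the lower endothelial genes of CoCM was not tested.

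The second question is whether the cells themselves changed these genes. Neither route gave a call. In ipABCB5 against Ctrl, 0 of 10 members had an adjusted p under 0.05 (0% of all genes) and 0 an unadjusted p under 0.05 (1.77% of all genes). DESeq2 gave 0 members by either measure, and limma voom with sample weights gave 3 members at the unadjusted p, where it gave 1242 of all 12778 genes. The log2 fold change was below 0 for 7 of 10 members and 49% of all genes, with a median of -0.09. The 10 values ran from -0.25 for Eng (interval -0.60 to 0.10) to 0.09 for Nos3 (interval -0.14 to 0.32). Kdr was at -0.19 ± 0.18, Flt1 at -0.15 ± 0.15, Tek at -0.22 ± 0.14 and Cdh5 at -0.08 ± 0.25. With a rat left out Kdr ran from -0.32 to -0.10, Flt1 from -0.22 to -0.07 and Tek from -0.28 to -0.16. In alternatives Kdr reached -0.42 and Tek -0.39. In ivABCB5 against Ctrl, again 0 of 10 had an adjusted p under 0.05 (0% of all genes) and 0 an unadjusted p under 0.05 (5.78% of all genes), with 0 by DESeq2 and 1 by limma with sample weights at the unadjusted p. No alternative processing gave more than 968 of all genes at that p. The value was below 0 for 6 of 10 members and 47.4% of all genes, with a median of -0.05, which turned to 0.01 without the 4 rats that stood apart. Values ran from -0.17 for Tek (interval -0.46 to 0.11) to 0.12 for Ehd3 (interval -0.47 to 0.71). Kdr was at -0.09 ± 0.18 and Flt1 at -0.02 ± 0.14. Since all 3 treated groups were set against the same 6 Ctrl rats, their values are not independent of each other.

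**Figure D2:**
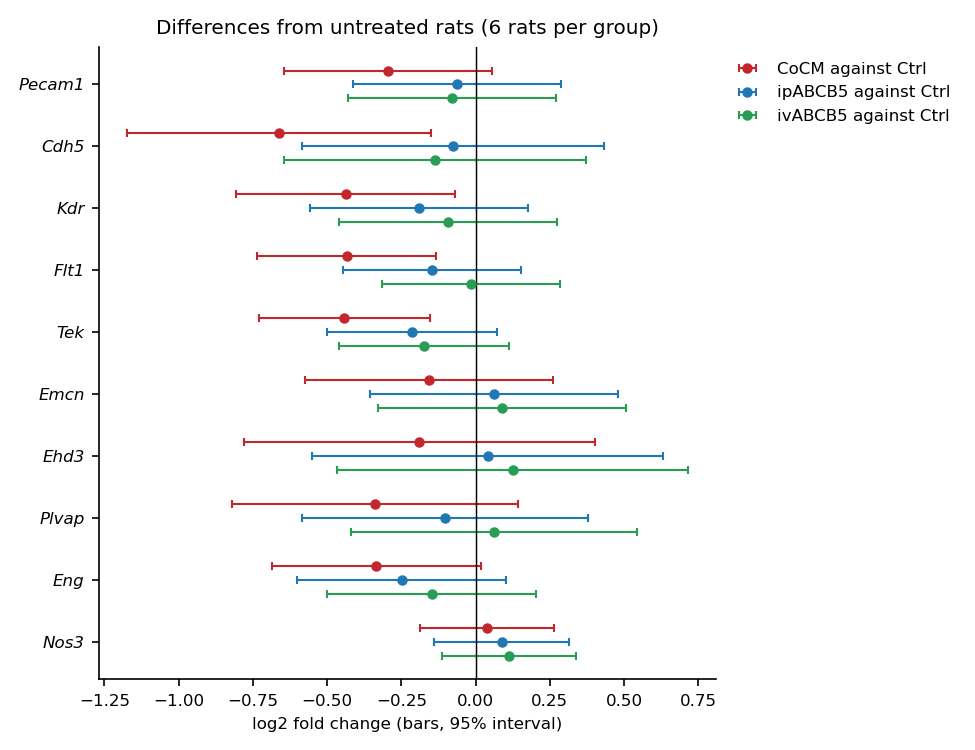
Log2 fold change of each gene (horizontal axis) in CoCM, ipABCB5 and ivABCB5 rats against Ctrl, from the model of all 24 rats, with 95% intervals. The intervals exclude 0 for Cdh5, Kdr, Flt1 and Tek in CoCM and for no gene in the cell groups.

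The routes of injection were compared directly. In ipABCB5 against ivABCB5, 0 of 10 members had an adjusted p under 0.05 (0% of all genes) and 0 an unadjusted p under 0.05 (2.14% of all genes), while DESeq2 gave 0 and limma with sample weights 1 at the unadjusted p (886 of all genes). The value was below 0 for 8 of 10 members and 50.2% of all genes, with a median of -0.06. This median ran from -0.09 to 0.001 with a rat left out and reached -0.21 in an alternative. The narrowest interval was that of Nos3 (-0.25 to 0.20) and the widest that of Ehd3 (-0.67 to 0.51). For these 2 genes the data of 6 rats a group were compatible with any difference inside these bounds. Medium was also set against cells, as CoCM against the mean of both cell groups. Here 0 of 10 had an adjusted p under 0.05 (0% of all genes), as with DESeq2, 2 had an unadjusted p under 0.05 (7% of all genes, 3.79% in the lower direction), and 10 of 10 were below 0 (51.9% of all genes), with a median of -0.26. The 2 were Cdh5 (log2 -0.55 ± 0.22, interval -1.01 to -0.10, unadjusted p = 0.0185) and Flt1 (-0.35 ± 0.13, interval -0.62 to -0.09, unadjusted p = 0.0113). That count depended on single rats. It was 1 without CoCM 26 or without CoCM 34, 4 without CoCM 27 or without ipABCB5 32, and 6 without CoCM 40. With a rat left out the same count over all genes ran from 445 to 1696, and the median of the members from -0.36 to -0.14.

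The 4 rats that stood apart from the rest divided the endothelial genes. Ehd3 lay at 88.6 CPM in CoCM 39, 95.5 in ipABCB5 38 and 80.5 in ivABCB5 36, above all 20 other rats (18.6 to 64.8, median 45.9), and at 46.5 in ivABCB5 37, near their median. Emcn lay at 121, 172, 132 and 128 CPM in the same order, which put them at ranks 19, 24, 23 and 20 of 24 counted from the lowest. Kdr was at its highest of all rats in ipABCB5 38 (142 CPM), but only 6th from the lowest in CoCM 39 (85.6 CPM). Pecam1 went the other way, at 63.4, 100.4, 85.8 and 100.1 CPM against 66.8 to 149 (median 122) in the others, or ranks 1, 6, 3 and 5. Cdh5 was likewise low, at 15.4, 24.9, 23 and 16.2 CPM against a median of 34.1. Plvap was lowest of all in CoCM 39 (56.2 CPM) but second highest in ivABCB5 37 (225 CPM).

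Ratios within a library, which do not depend on scaling between libraries, show the same split. The TPM ratio of Ehd3 to Pecam1 was 1.39 in CoCM 39, 0.945 in ipABCB5 38, 0.932 in ivABCB5 36 and 0.462 in ivABCB5 37, against 0.262 to 0.541 (median 0.36) in the other 20. That of Emcn to Pecam1 was 3.06, 2.73, 2.46 and 2.04 against 1.06 to 1.79 (median 1.22), so that all 4 lay above the others. The ratio of Kdr to Flt1 varied less, from 0.938 to 1.26 in the 20 others. It stood out in ipABCB5 38 at 1.68 and was just above the others in ivABCB5 36 at 1.28. Many other lists differed in the same 4 libraries. Counted from the lowest of 24 and in the order CoCM 39, ipABCB5 38, ivABCB5 36 and ivABCB5 37, the summed CPM ranked 22, 21, 23 and 24 for 7 proximal tubule genes, 23, 24, 21 and 22 for 4 genes of thick limb and distal tubule, and 1, 2, 4 and 3 for 8 injured tubule genes. The last sum was made mostly of Spp1, so that its ranks may restate how the 4 rats were picked. Sox9 of the same list ranked 2, 1, 22 and 9. By summed CPM the 5 podocyte genes ranked 23, 24, 22 and 11, the 5 principal cell genes 23, 24, 16 and 8, and the 4 intercalated cell genes 23, 24, 20 and 14. The summed CPM of 3 other genes of glomerular endothelium ranked 4, 9, 3 and 1, but most of this sum was Plat (171 of 189 CPM in CoCM 39). Taken singly, Plat ranked 4, 7, 2 and 1, Gata5 23, 24, 17 and 16, and Tbx3 24, 23, 20 and 2. The part of these other genes in the split was not tested.

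**Figure D3:**
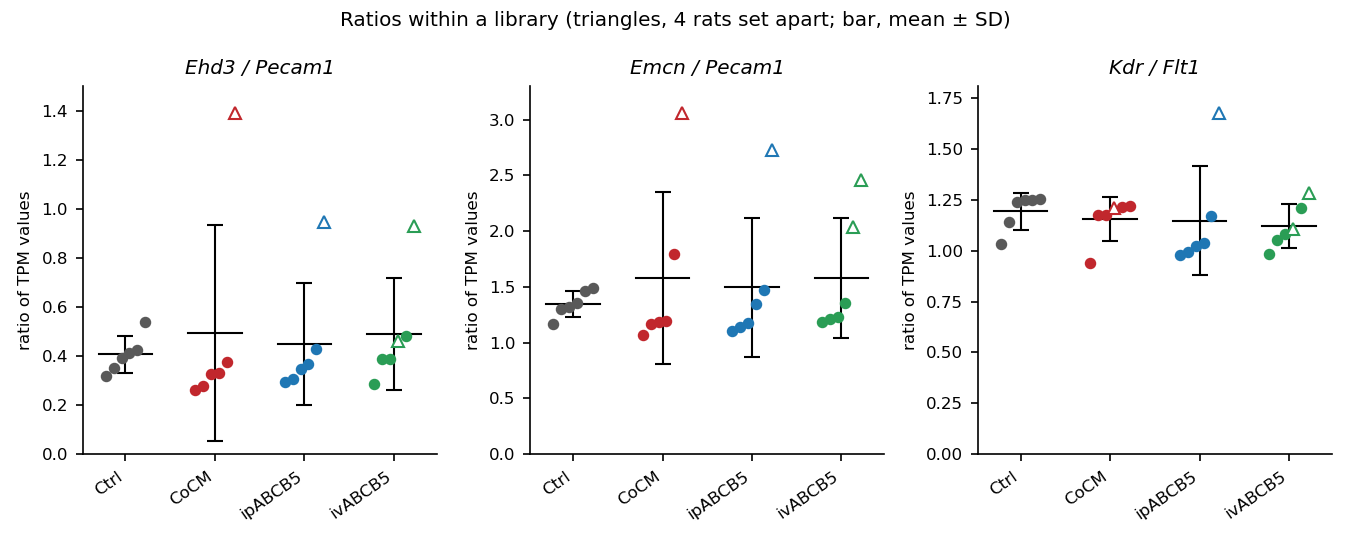
Ratio of TPM values between 2 genes of the same library (vertical axes, from 0) in the 4 groups, 1 point a rat, with the mean ± SD. Open triangles are the 4 rats that stood apart, which lie highest for Emcn to Pecam1 at 2.04 to 3.06.

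Over the 20 other rats the 10 genes varied together. The deviations of log2 CPM from group means gave a Pearson r above 0 for 45 of 45 pairs, from 0.35 to 0.93 with a median of 0.65. All 10 values of a rat come from the same library and share its scaling, so that r is given as a description with no test. The share of other gene pairs above 0 was not taken. Over the same 20 rats the mean of the 5 VEGF ligands had an r of 0.49 (Cdh5) to 0.80 (Eng) with single members. The closest pairs of members were Pecam1 and Plvap (r = 0.93, Spearman's rho 0.90) and Kdr and Flt1 (r = 0.92, rho 0.91). Tek was near both sets, with r = 0.86 to Ehd3, 0.87 to Flt1 and 0.82 to Pecam1. Nos3 was the loosest, with a median r of 0.46 to the others. With the 4 rats included, 40 of 45 pairs were above 0 and the median fell to 0.46. Kdr and Flt1 then still gave 0.81 and Pecam1 and Plvap 0.85, but Ehd3 and Plvap turned from 0.53 to -0.39, and Ehd3 and Pecam1 from 0.70 to -0.14. The pair of Emcn and Ehd3 was at 0.71 without the 4 and 0.78 with them.

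**Figure D4:**
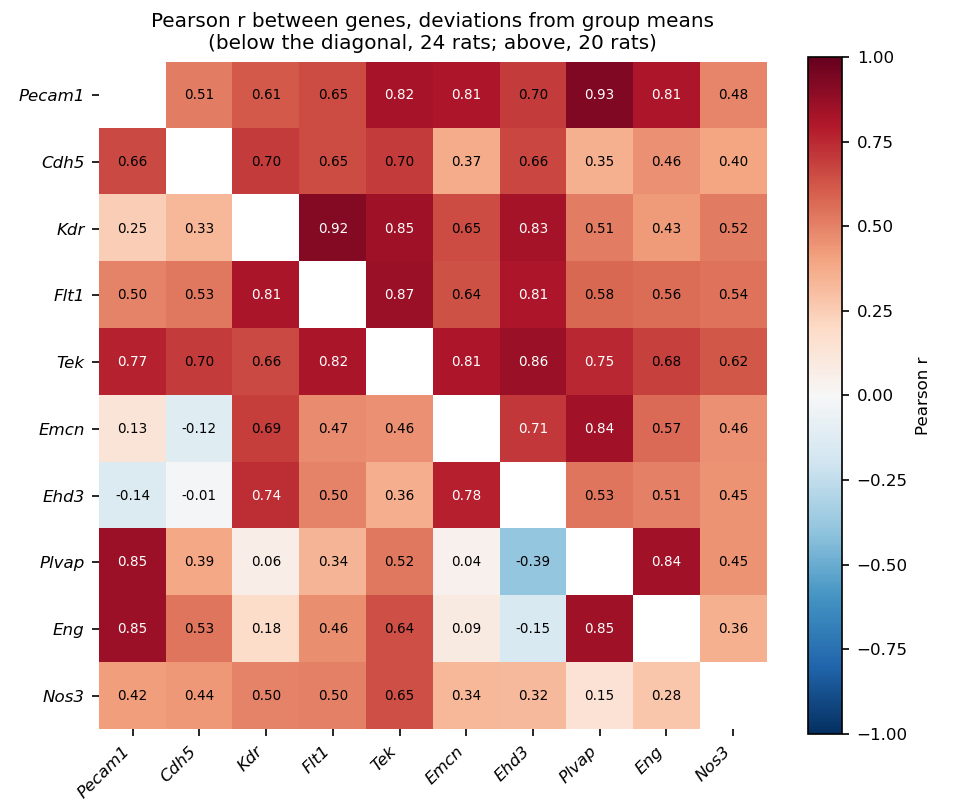
Pearson r between each pair of genes over rats, as deviations of log2 CPM from the group means, with colour from -1 (blue) to 1 (red). Below the diagonal are all 24 rats, where Ehd3 and Plvap are at -0.39, and above it the 20 rats without the 4 that stood apart, where all 45 pairs are above 0.

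The spread between rats of a group was not unusual for kidney genes. The SD of log2 CPM within groups ran from 0.18 for Nos3 to 0.51 for Ehd3, which placed the members between the 26.2th and the 73.7th percentile of all tested genes. Of the other genes tested, those most like the mean of the 10 over all 24 rats were Tie1 (r = 0.88 over 24 rats, 0.95 over 20), Cd200 (0.87 and 0.89), Meis2 (0.83 and 0.85), Thbd (0.82 and 0.82), Tmem204 (0.81 and 0.81), Pcdh12 (0.81 and 0.94), Uaca (0.79 and 0.89), Jam3 (0.76 and 0.79), Klf2 (0.76 and 0.82) and Csgalnact1 (0.75 and 0.77). Tie1 encodes the orphan partner of Tie2, Thbd the anticoagulant receptor thrombomodulin and Klf2 a transcription factor induced by shear stress.

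The ligands did not pass the test in CoCM. Of the 5 VEGF ligands, 0 had an unadjusted p under 0.05 and 3 were below 0. Vegfa, the main ligand of Kdr and Flt1, was by far the most abundant at 175 TPM on average, ahead of Vegfb at 86.5, while Vegfc, Vegfd and Pgf were at 10.3, 6.23 and 4.43 TPM. Vegfa lay at 200.4 to 462 CPM in Ctrl (median 342) and at 250.3 to 646 in CoCM (median 396), and these ranges overlapped widely. Its log2 fold change was 0.29 ± 0.22 (unadjusted p = 0.198) and 0.10 without the 4 rats that stood apart. The highest Vegfa values of the 24 were those of CoCM 39 (646 CPM) and ipABCB5 38 (553 CPM), which were also the rats with the highest Ehd3. Vegfb, a ligand of Flt1 alone, was at 0.18 ± 0.10 and Pgf, another, at -0.06 ± 0.21, which turned to 0.02 without those 4 rats and to 0.06 with sample weights. Vegfb ran from 0.12 to 0.21 with a rat left out and fell to 0.07 in an alternative. Vegfc and Vegfd, the ligands of lymphatic vessels, were at -0.47 ± 0.26 and -0.69 ± 0.36, with unadjusted p of 0.0813 and 0.067. With a rat left out they ran from -0.69 to -0.31 and from -1.06 to -0.49.

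**Figure D5:**
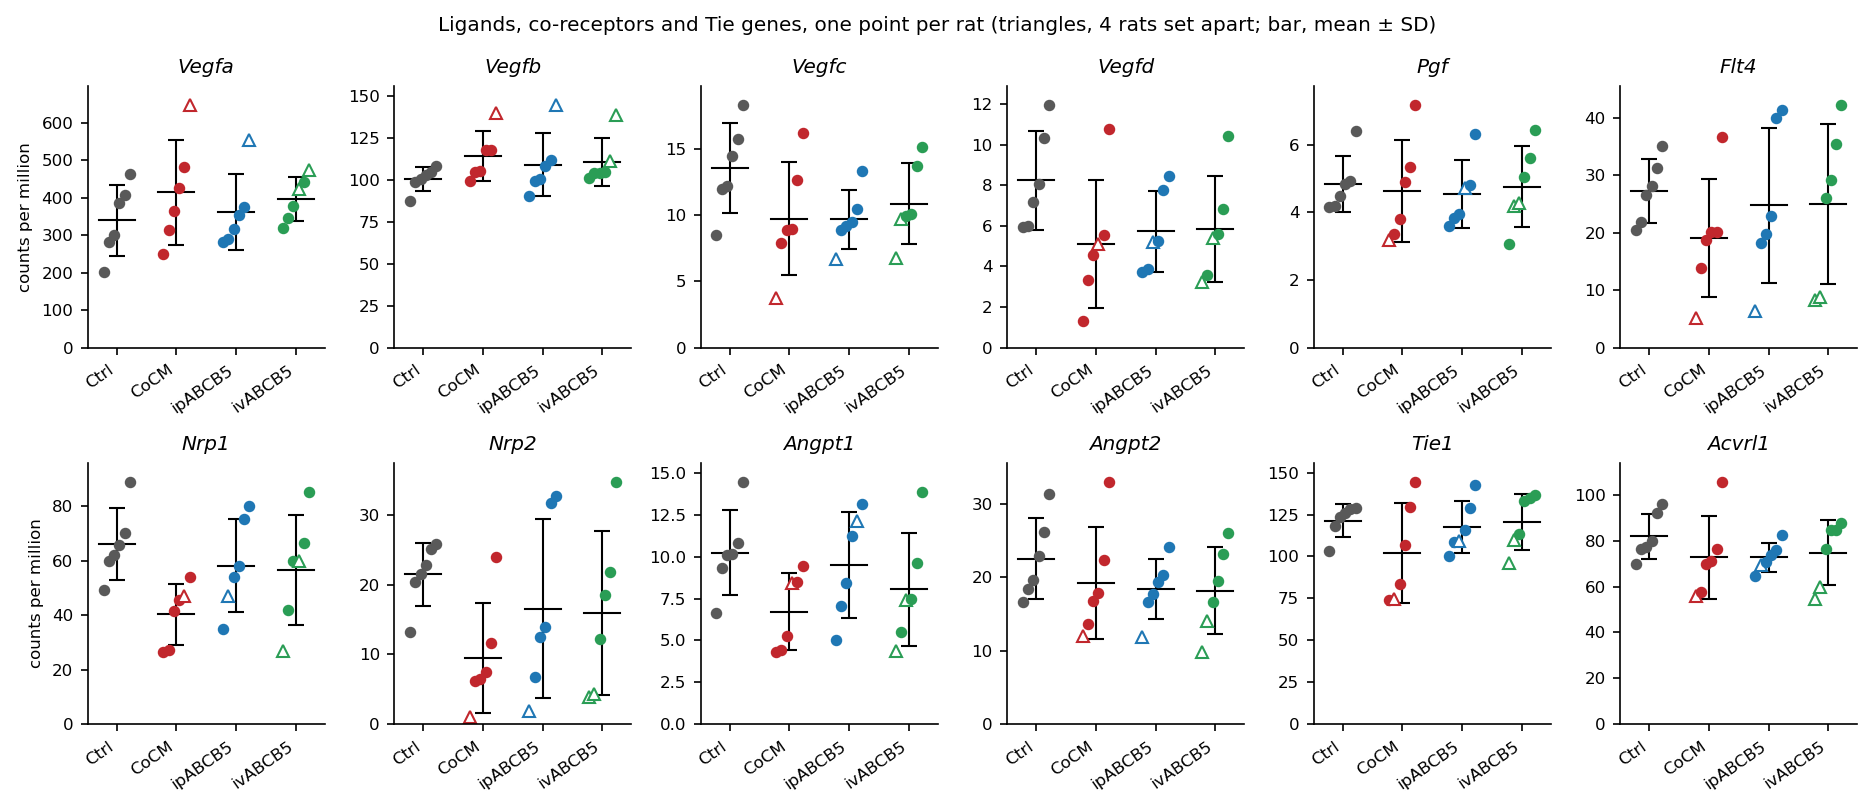
Level of the VEGF ligands, Flt4, the neuropilins, the angiopoietins, Tie1 and Acvrl1 in CPM (vertical axes, from 0) in the 4 groups, 1 point a rat, with the mean ± SD. Open triangles are the 4 rats that stood apart, which are the 4 lowest of 24 for Flt4 and Nrp2 and hold the highest value for Vegfa (646 CPM).

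Of the other VEGF receptors and co-receptors, 1 of 3 had an unadjusted p under 0.05 in CoCM against Ctrl and all 3 were below 0, with a median of -0.71. Nrp1, the co-receptor that presents VEGF-A to Kdr, lay at 49.4 to 88.9 CPM in Ctrl (median 63.9) and at 26.4 to 54.2 in CoCM (median 43.6). Its fold change was 0.611 (log2 -0.71 ± 0.24, unadjusted p = 0.00728, adjusted p = 0.319), with an overlap between the groups at their edges, and -0.77 without the 4 rats that stood apart. Nrp2, the co-receptor for VEGF-C, was at -1.17 ± 0.61 (unadjusted p = 0.0662) and Flt4, VEGF receptor 3, at -0.51 ± 0.43 (unadjusted p = 0.253). Both were lowest of all 24 in the 4 rats that stood apart, at 1.02 to 4.27 and 5.12 to 8.83 CPM, against 6.25 to 34.7 and 13.9 to 42.2 in the others. Without those rats Nrp2 was at -0.96 and Flt4 at -0.32.

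Of the angiopoietin and Tie genes, 1 of 3 had an unadjusted p under 0.05 and all 3 were below 0. Angpt1, the ligand that activates Tie2, was at 6.61 to 14.5 CPM in Ctrl (median 10.1) and 4.29 to 9.47 in CoCM (median 6.84), with a log2 fold change of -0.61 ± 0.28 (unadjusted p = 0.0414, adjusted p = 0.406). Angpt2, its context-dependent antagonist, was at -0.22 ± 0.24 and Tie1 at -0.25 ± 0.15. With a rat left out Angpt2 ran from -0.45 to -0.10 and Tie1 from -0.38 to -0.17. Of the partners of endoglin, Acvrl1, the receptor kinase ALK1, was at -0.17 ± 0.14 and Bmpr2, a type II receptor for bone morphogenetic proteins, at -0.43 ± 0.22 (unadjusted p = 0.0705). They ran from -0.32 to -0.10 and from -0.53 to -0.32 with a rat left out. The ligands of this receptor complex were not tested, since Gdf2 was listed at 0 in all 24 libraries and Bmp10 reached at most 0.553 CPM.

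Other endothelial genes were counted at an unadjusted p under 0.05 in CoCM against Ctrl, where 5.96% of all genes were lower. Of 9 other pan-endothelial genes, 3 were lower and 7 were below 0, among them Cd34, a surface sialomucin of capillaries (log2 -0.80 ± 0.24, unadjusted p = 0.00296, adjusted p = 0.257), and Calcrl, the receptor for adrenomedullin (-0.86 ± 0.30, unadjusted p = 0.00883). Of 10 genes of endothelial activation, 3 were lower and 9 below 0. Esm1, a VEGF-induced proteoglycan, was at 13.4 to 43.6 CPM in Ctrl (median 30.04) and 7.39 to 24.8 in CoCM (median 14.4), with a log2 fold change of -0.92 ± 0.26 (unadjusted p = 0.00194, adjusted p = 0.234). Apln, the peptide apelin of sprouting tips, was at -0.80 ± 0.30 (unadjusted p = 0.0141) and ran from -0.93 to -0.51 with a rat left out. Of 14 endothelial transcription factors, 1 was lower, Epas1, the hypoxia-inducible factor HIF-2α (-0.62 ± 0.23, unadjusted p = 0.015), which limma voom with sample weights called (log2 -0.81, adjusted p = 0.0451). Of 8 arterial and venous genes 1 was lower, Nr2f2, which sets venous identity (-0.18 ± 0.09, unadjusted p = 0.0452). For 7 nitric oxide, 5 junction, 3 glomerular endothelial and 3 lymphatic genes the count was 0, and their median log2 fold changes were 0.03, -0.17, -0.11 and -0.05. In ipABCB5 and ivABCB5 against Ctrl, 0 of 5 ligands, 0 of 3 other receptors, 0 of 3 angiopoietin and Tie genes and 0 of 2 endoglin partners had an unadjusted p under 0.05. Of the 10 activation genes, 1 was lower at that p in ipABCB5 and 0 in ivABCB5. Their medians, -0.26 and -0.31 with 9 and 10 genes below 0, were near the -0.30 of CoCM. Of the 14 transcription factors, 1 was higher in ipABCB5 and 1 lower in ivABCB5. Of the 9 pan-endothelial genes, 1 was higher in ivABCB5. Of all genes, 1.77% in ipABCB5 and 5.78% in ivABCB5 had an unadjusted p under 0.05.

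Cells that adjoin the endothelium were looked at beside it. Of 8 pericyte and smooth muscle genes, 1 was lower in CoCM at an unadjusted p under 0.05, the pericyte gene Rgs5 (-0.56 ± 0.22, unadjusted p = 0.0197), and 5 were below 0. Of 5 podocyte genes, 1 was lower, Synpo, which encodes the foot process protein synaptopodin (-0.77 ± 0.29, unadjusted p = 0.0143), and the median of the 5 was -0.05. Of 7 proximal tubule genes, 1 was lower, the glucose transporter gene Slc5a2 (-0.73 ± 0.32, unadjusted p = 0.0341), and 5 were above 0. Of 5 genes of collecting duct principal cells, 1 was higher, the vasopressin receptor gene Avpr2 (0.43 ± 0.20, unadjusted p = 0.0449), and all 5 were above 0. In the lists of injured tubule, thick limb and distal tubule, intercalated cell, T and NK cell, B cell, platelet and red blood cell genes the count was 0 in both directions, and the medians were -0.03, 0.34, 0.46, -0.25, -0.02, -0.19 and -0.92. By edgeR none of the genes named in these lists had an adjusted p under 0.05, while limma voom with sample weights called Synpo (log2 -1.002, adjusted p = 0.0461).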

How the data were processed

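Total RNA of 24 left kidneys was sequenced, and groups were taken from the sample labels. For each rat the authors deposited estimated counts and TPM values for the same 17334 Entrez identifiers. The estimated counts were not normalized by the authors, and the deposited TPM values allow for transcript length and sequencing depth. The submitters' processing notes list rn6, Trim Galore 0.6.4 and kallisto 0.4.6, and the study's methods a package of human gene models and DESeq2. Symbols came from RefSeq (GRCr8), where 17179 identifiers were found.

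Estimated counts were rounded, filtered with filterByExpr by group (12778 genes left), scaled by TMM and fitted for all 24 rats in edgeR 4.0.16 (R 4.3.3). Contrasts were tested with the quasi-likelihood F-test, adjusted by Benjamini-Hochberg over all genes tested, with a threshold of 0.05. The study named DESeq2, which was run as an alternative (1.42.0), as was limma 3.58.1. On simulated counts the code was tested with 200 changed genes. SE was the log2 fold change divided by the square root of F. Total counts of 9304601 to 14125442 limit the precision of rare transcripts such as Bmp10, and the reads carry no molecular identifiers. No pair of libraries in a group agreed within sampling noise (smallest chi-square per degree of freedom 10.6).

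The members, the other gene lists and the tests were chosen with earlier results of these data known. Named were all members, every gene of the ligand, receptor, angiopoietin and endoglin lists, up to 2 genes with the smallest unadjusted p in CoCM against Ctrl of each other list (of these only genes with an unadjusted p under 0.05 are given), and the 10 genes most like the members' mean by Pearson's r. Mmrn2, Ecscr, Ephb4 and other listed genes without a row in the tables used were not analysed here. Nothing says whether the rats of a group were housed or prepared apart. The p-values set a difference against the spread between rats as sampled. Against Ctrl they cannot tell treatment from the order of the animals.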

Additional observations from a re-analysis of the deposited data

Results flagged for a closer look

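In 40 sets of 6 rats (10 genes in 4 groups), 4 held a rat whose gap to its nearest neighbour took an unusually large share of the group's range (Dixon's 95% limit), where chance gives about 1 in 20. Flt1 in ivABCB5 43 was at 138 CPM, above 93.3 to 107 in the other 5 rats of its group. Ehd3 in ipABCB5 38 was at 95.5 CPM, above 33.3 to 51.0. Plvap in Ctrl 23 was at 123 CPM, below 179 to 208. Eng in ipABCB5 29 was at 388 CPM, above 251 to 298. ipABCB5 38 is 1 of the 4 rats described above as standing apart, and the other 3 rats named here are not.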

How the results depend on the processing

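In CoCM against Ctrl, 0 of 10 members reached an adjusted p under 0.05 in every alternative run, and 9 of 10 kept their direction in all of them. The count with an unadjusted p under 0.05, 4 as reported, was 7 by limma with sample weights and by limma on log2(TPM + 1) or log2(TPM + 0.1), 2 with the length trend removed, and 3 (without CoCM 26) to 6 (without CoCM 40) when a rat was left out. In CoCM against the mean of the cell groups that count, 2 as reported, was 1 with the length trend removed and 1 to 6 with a rat left out. By limma with sample weights it was 3 in ipABCB5 against Ctrl, 1 in ivABCB5 against Ctrl and 1 between the routes. Over all genes the same count in CoCM against Ctrl was 1523 of 12778 as reported. It was 2834 with sample weights, at least 1258 in every alternative and 1078 to 2014 with a rat left out. With sample weights it was 1242 in ipABCB5 against Ctrl and 886 between the routes. In ivABCB5 against Ctrl it was at most 968 in an alternative. The number of all genes with an adjusted p under 0.05 in CoCM against Ctrl, 1 as reported, was 81 by DESeq2, 183 by limma with sample weights, 0 on TPM, with only the groups compared or without the 4 rats, and 0 to 30 with a rat left out (30 without Ctrl 23). In the other contrasts it was 0, except by DESeq2 (1 in ivABCB5 against Ctrl, 1 between the routes, 3 for CoCM against the cell groups) and, for the last, by limma with sample weights (2). By limma with sample weights 2 other named genes were called in CoCM against Ctrl, Epas1 (-0.81, adjusted p = 0.0451) and Synpo (-1.002, adjusted p = 0.0461).

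Genes whose direction turned had a reported log2 difference between -0.14 and 0.12. With sample weights the turned values were Emcn -0.22, Ehd3 -0.28 and Nos3 -0.030 (ipABCB5 against Ctrl), Cdh5 0.038, Emcn -0.092, Ehd3 -0.015 and Plvap -0.033 (ivABCB5 against Ctrl), Pecam1 -0.11 and Cdh5 -0.23 (between routes) and Pgf 0.058 (CoCM). Without the 4 rats they were Cdh5 0.0083, Emcn -0.11, Ehd3 -0.22 and Plvap 0.00014 (ipABCB5), Pecam1 0.063, Cdh5 0.12, Flt1 0.011 and Emcn -0.043 (ivABCB5), Pecam1 -0.075 and Cdh5 -0.12 (between routes) and Pgf 0.024 (CoCM). On log2(TPM + 1) and log2(TPM + 0.1) they were Nos3 -0.059 and -0.063 (CoCM), Emcn -0.055 and -0.056 and Ehd3 -0.097 and -0.10 (ipABCB5), and Emcn -0.0083 and -0.0084 and Plvap -0.0166 and -0.0167 (ivABCB5). With the length trend removed they were Emcn -0.0066 (ipABCB5) and Flt1 0.019 (ivABCB5). With a rat left out, values that turned ran from -0.0081 to 0.098 for Nos3 and -0.25 to 0.034 for Pgf (CoCM), from -0.20 to 0.012 for Cdh5, -0.12 to 0.12 for Emcn and -0.23 to 0.14 for Ehd3 (ipABCB5), from -0.12 to 0.050 for Flt1, -0.021 to 0.18 for Ehd3 and -0.037 to 0.12 for Plvap (ivABCB5), and between the routes from -0.065 to 0.081 for Pecam1, -0.076 to 0.21 for Cdh5, -0.098 to 0.042 for Tek, -0.19 to 0.047 for Emcn, -0.34 to 0.049 for Ehd3 and -0.086 to 0.037 for Nos3. The causes were not tested. No paired analysis was possible because no rat number occurs in more than 1 group. Leaving out the 4 rats and removing the length trend were chosen after the data were seen, and depth limits no member, each of which had at least 135 counts in every library.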
